A study of Caenorhabditis elegans with 9 samples.

Results

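Histone genes his-24, his-72 and his-74 and the kinase gene cdk-4 were followed in VA motor neurons of Caenorhabditis elegans. These 4 genes were taken by symbol from the authors' deposited table of 2349 genes called higher in wild type VA neurons than in whole worms, out of 2550 distinct genes in the 2 tables of the series. All 4 were in that table, and their levels there chose them, so the values below describe that contrast and no test is given for it. The groups used were 3 libraries of wild type VA neurons from second larval stage (L2) animals of a strain with pUnc-4::mCherry and pUnc-4C::GFP, and 3 whole-worm L2 libraries of the strain N2. A further 3 libraries came from VA neurons of unc-4 mutant L2 animals with the same reporters, and the labels do not give the unc-4 allele. Cells that were red but not green were sorted, a gate that takes AVF neurons as well as VA neurons, whereas whole worms were frozen unsorted. The 2 groups of the main contrast thus differ in strain and handling as well as in cell content. Levels are in TPM, a measure of transcript abundance that is scaled by transcript length and sums to a fixed total in each library, so levels of different genes can be set side by side but sequencing depth is unknown. Libraries are called by the replicate number in their label. Whether they stem from separate cultures is not stated in the labels, and their spread may therefore be technical.

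Histones package DNA. The linker histone H1, to which HIS-24 belongs, binds the DNA that enters and leaves the nucleosome. Canonical core histones are made mainly while DNA is copied, whereas the H3.3 variant can be placed in chromatin at any time and therefore builds up in cells that no longer divide. CDK-4 acts with the D-type cyclin CYD-1 to take blast cells through G1 after hatching. The cholinergic VA motor neurons of the ventral cord arise after hatching from divisions of the P cell descendants and are then postmitotic.

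The sorted libraries carried the markers of cholinergic ventral cord motor neurons. All 9 genes on that marker list stood in the authors' list for VA neurons, with a summed level of 3498 to 4975 TPM in VA libraries against 85.2 to 103 TPM in whole worms. The list includes unc-4, whose promoter parts drove the sorting reporters. Of 6 GABA neuron markers 2 were listed (snf-11 and unc-55), with a summed level of 93.0 to 201 TPM in VA libraries and 12.3 to 22.4 TPM in whole worms. Of these, unc-55 read 17.003, 33.5 and 0.0256 TPM in VA libraries 1 to 3, against 1.34, 1.05 and 2.63 TPM in whole-worm libraries 2 to 4, so its groups overlapped and VA library 3 was near 0. Of 7 ciliated neuron markers 1 was listed (daf-19), at 21.7 to 38.3 TPM in VA libraries and 12.3 to 17.4 TPM in whole worms. Listed were 0 of 6 muscle, 0 of 5 pharynx, 0 of 7 intestine, 0 of 8 hypodermis, 0 of 7 germline and 0 of 6 matched glia and coelomocyte markers. As background, the authors' list takes in 11.6% of the protein-coding genes in the annotation. In lists of 5 to 8 genes a count of 0 is near that share, so it is not read as absence of these cells. A gene appears in the table only when it was higher in the sorted cells, so RNA of such cells is not seen here unless it exceeded whole worms, and its part in the results was not tested. In bulk libraries fewer cells of a type and less RNA per cell cannot be told apart.

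The linker histone gene his-24 was the most abundant of the 4. It is a gene of 2 exons on chromosome X (14490094 to 14491119, plus strand, WBcel235, identifier WBGene00001898) and has a reading frame of 208 codons. Its level was 2168, 1451 and 3397 TPM in VA libraries 1, 2 and 3, against 418, 185 and 396 TPM in whole-worm libraries 2, 3 and 4. All VA libraries lay above all whole-worm libraries, and the lowest VA library was 3.47 times the highest whole-worm library. The mean was 2338 ± 984 TPM in VA neurons and 333 ± 129 TPM in whole worms (SD, n = 3 each), a ratio of 7.02. With these means his-24 was the 25th most abundant of the 2349 listed genes in VA neurons and the 17th in whole worms, so its high rank was not particular to VA neurons. Coefficients of variation of 42.1% in VA neurons and 38.6% in whole worms show a spread of like size in both groups. Noncoding genes M163.16 and M163.19 overlap his-24 on the opposite strand, and no source used here says whether counting used strand, so reads from them cannot be told apart from those of his-24.

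The H3.3 gene his-72 had the most even level of the 4 across VA libraries. It lies on chromosome III (12367475 to 12369050, minus strand, WBGene00001946), with 2 annotated transcripts of 2 and 3 exons. The shorter reading frame has 136 codons, as does that of his-74. Its level was 513, 399 and 339 TPM in VA libraries 1 to 3, against 98.4, 89.0 and 116 TPM in whole-worm libraries 2 to 4. All VA libraries again stood above all whole-worm libraries, by at least 2.91 times. The mean was 417 ± 88.3 TPM in VA neurons and 101.2 ± 13.9 TPM in whole worms (SD, n = 3 each), a ratio of 4.12. Between VA libraries the SD on log2(TPM + 1) was 0.30, and 82.2% of the listed genes that averaged 1 TPM or more there had a larger one. A further H3.3 gene, his-71, was not listed, nor were his-69 and his-70 of the H3 variant list, which gives no level for them. A snoRNA gene, Y49E10.36, lies within the longer his-72 gene model on the same strand.

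The H3.3-like gene his-74 varied most of the 4 between VA libraries. It has 2 exons on chromosome V (12659704 to 12660330, minus strand, WBGene00012276), and the gene ccch-3 lies 16 bases away on the same strand. Its level was 103, 50.2 and 26.3 TPM in VA libraries 1 to 3, against 16.2, 16.02 and 22.4 TPM in whole-worm libraries 2 to 4. The groups did not overlap, but VA library 3 was only 1.17 times whole-worm library 4. The mean was 60.0 ± 39.4 TPM in VA neurons and 18.2 ± 3.63 TPM in whole worms (SD, n = 3 each), a ratio of 3.29. Without VA library 1 the ratio was 2.1003. Its coefficient of variation was 65.7% in VA neurons and 19.9% in whole worms.

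The kinase gene cdk-4 had the lowest mean level of the 4, ranking 1084th of the 2349 listed genes in VA neurons, and the same ratio as his-24 to 2 digits. It spans 5 exons on chromosome X (13515856 to 13518911, minus strand, WBGene00000406), with 342 codons, and no annotated gene overlaps it. Its level was 47.9, 47.4 and 17.2 TPM in VA libraries 1 to 3, against 5.90, 4.68 and 5.41 TPM in whole-worm libraries 2 to 4. The VA libraries 1 and 2 were nearly equal and library 3 was far lower, yet 2.91 times the highest whole-worm library. The mean was 37.5 ± 17.6 TPM in VA neurons and 5.33 ± 0.618 TPM in whole worms (SD, n = 3 each), a ratio of 7.03.

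**Figure D1:**
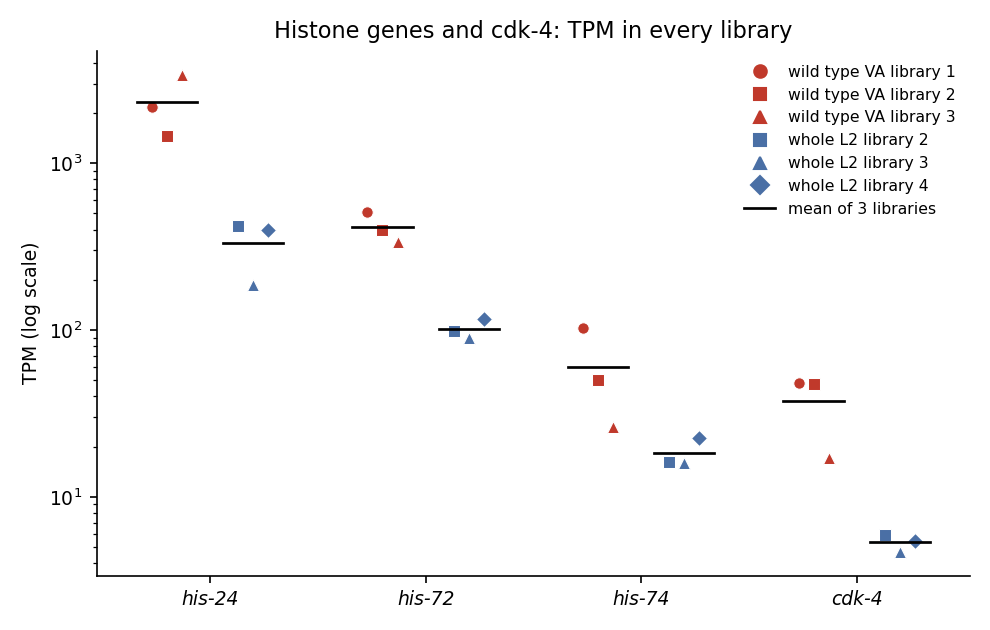
TPM (log axis) of his-24, his-72, his-74 and cdk-4 in each wild type VA library (red, left of each pair) and each whole L2 library (blue, right), with marker shape giving the library number and a line the mean of 3 libraries. In each gene the VA points lie above the whole-worm points, by least in his-74, where VA library 3 is at 26.3 TPM and whole-worm library 4 at 22.4 TPM.

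On the log2(TPM + 1) scale the differences of VA neurons minus whole worms were 2.81 for his-24, 2.02 for his-72, 1.47 for his-74 and 2.47 for cdk-4. The authors' deposited table gives folds of 9.70 for his-24, 5.42 for his-72, 4.18 for his-74 and 9.13 for cdk-4. The FDR p-values of the authors' deposited table are 5.0e-09 for his-24, 2.1e-07 for his-72, 4.2e-04 for his-74 and 8.7e-10 for cdk-4. Those folds run above the ratios of mean TPM, as they do across the table, where log2 of the ratio minus log2 of the fold had a median of -0.39. Every VA library exceeded every whole-worm library in 4 of 4 genes. The same held for 91.9% of all listed genes, and the genes were chosen on this contrast, so nothing is read from that count.

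Set against the rest of the table, the 4 genes were not among its steepest contrasts. The ratio of mean TPM ranked 908th for cdk-4, 910th for his-24, 1371st for his-72 and 1604th for his-74, of 2329 genes with a level above 0 in whole worms. The median ratio over those genes was 5.18, so cdk-4 and his-24 were above it and his-72 and his-74 below it. By level the order in VA neurons was his-24, his-72, his-74 and cdk-4. The ranges of his-74 (26.3 to 103 TPM) and cdk-4 (17.2 to 47.9 TPM) overlapped there, although his-74 was the higher of the pair within each VA library. In whole worms the order was the same, with no overlap between neighbours. Summed, the 4 genes took 0.283%, 0.195% and 0.378% of all TPM in VA libraries 1 to 3, against 0.0539%, 0.0295% and 0.0540% in whole-worm libraries 2 to 4.

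**Figure D2:**
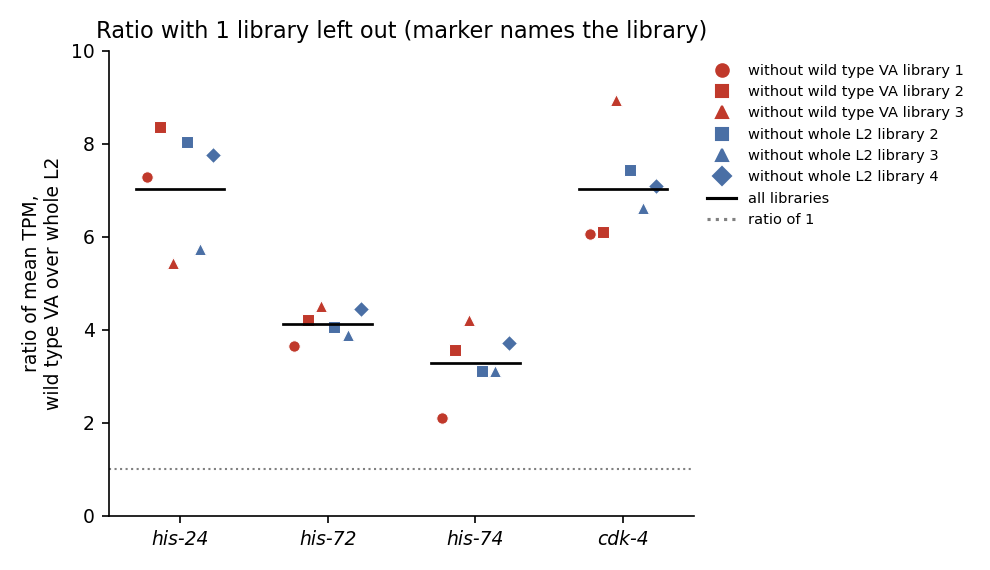
Ratio of mean TPM (wild type VA over whole L2, linear axis from 0) for each gene with all libraries (line) and with 1 library left out (markers, red for a VA and blue for a whole-worm library, shape for its number). Every value lies above 1, as it must where the groups do not overlap. The ratio of his-74 falls to 2.1003 without VA library 1, and those of his-72 stay between 3.64 and 4.50.

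The 4 genes did not all order the VA libraries alike. In VA library 3 his-24 was at its highest, with a deviation of 0.63 from its VA mean on the log2(TPM + 1) scale. In that same library the deviations were -0.95 for both cdk-4 and his-74 and -0.28 for his-72. The median deviation over listed genes of at least 1 TPM was -0.25 in VA library 3, which was the lowest VA library for 53.2% of those genes. In the codes of the column headers VA library 3 stands apart from VA libraries 1 and 2 and beside the unc-4 libraries. What these codes stand for is not stated, and their part in the deviations was not tested. In VA library 2, by contrast, the deviation was -0.60 for his-24 and 0.47 for cdk-4. The gene unc-55, from the GABA neuron marker list, was also lowest in VA library 3, at 0.0256 TPM. Which cells its reads came from is unknown, and its part in these deviations was not tested. VA library 1 was the highest VA library for his-72, his-74 and cdk-4, as for 63.2% of listed genes. The share of heat shock genes was unequal between these libraries. Of all TPM, the 9 listed ones took 5.04%, 32.4% and 1.79% in VA libraries 1, 2 and 3, and between 0.0534% and 0.190% in whole-worm libraries, which lowers the TPM of other genes most in VA library 2. With these genes taken out of the total, cdk-4 read 50.4, 70.1 and 17.5 TPM in VA libraries 1 to 3, with library 3 again far lower. On the same scale his-72 read 540, 590 and 345 TPM and his-74 read 109, 74.3 and 26.8 TPM, also lowest in library 3, whereas his-24 read 2283, 2146 and 3459 TPM and was highest there. For his-72 and cdk-4 the highest VA library thus changed from library 1 to library 2, while for his-74 it remained library 1. The ratios of VA neurons to whole worms became 7.89 for his-24, 4.85 for his-72, 3.84 for his-74 and 8.62 for cdk-4.

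**Figure D3:**
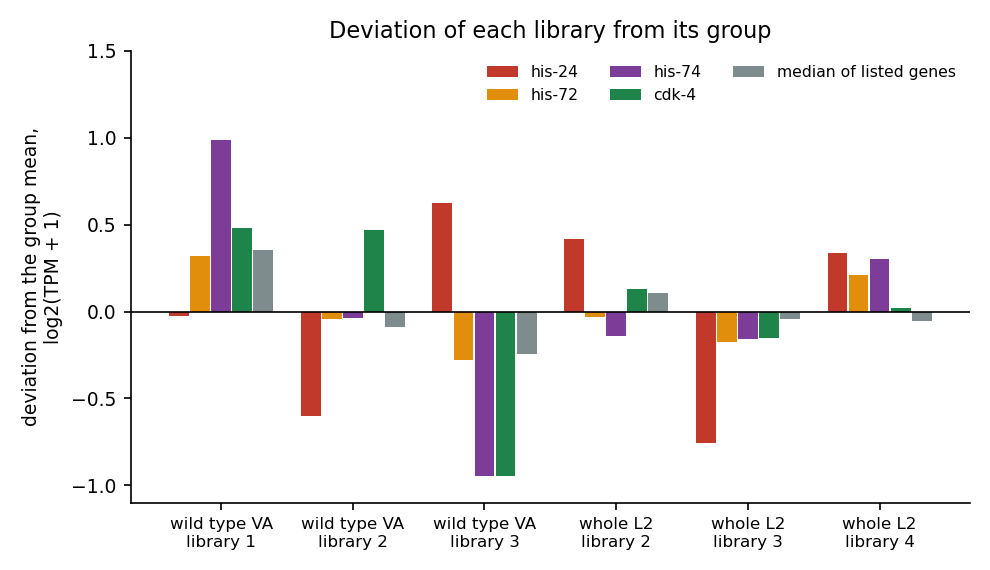
Deviation of each library from the mean of its group on the log2(TPM + 1) scale, for the 4 genes and for the median of the listed genes that averaged 1 TPM or more in VA neurons (grey). In VA library 3 the bar of his-24 is at 0.63 while those of his-74 and cdk-4 are at -0.95.

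Ratios between genes within a library do not depend on its total. His-24 stood at 4.23, 3.64 and 10.03 times his-72 in VA libraries 1 to 3, against 4.25, 2.08 and 3.40 times in whole-worm libraries 2 to 4. These ranges overlap, and the means of 5.96 ± 3.53 in VA neurons and 3.24 ± 1.09 in whole worms (SD, n = 3 each) differ by less than the VA spread. His-74 stood at 2.16, 1.06 and 1.53 times cdk-4 in VA libraries 1 to 3, against 2.75, 3.43 and 4.14 times in whole-worm libraries 2 to 4. This pair was the only 1 of 6 in which the groups did not overlap. His-72 stood at 10.7, 8.41 and 19.7 times cdk-4 in VA libraries 1 to 3, inside and below the 16.7, 19.03 and 21.5 times of whole-worm libraries 2 to 4.

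Other histone genes in the table place the 3 in their families. The share of annotated protein-coding genes that were listed was 11.6%, and an unlisted gene may be lower, unchanged, untested or not expressed. Among 7 linker histone genes besides his-24, 2 were listed, hil-2 and hil-3. Their means were 669 TPM in VA neurons against 217 TPM in whole worms for hil-2, and 420 against 103 TPM for hil-3, with ratios of 3.09 and 4.08. Within the 3 listed linker histone genes his-24 made up 62.1%, 61.5% and 76.6% of the summed TPM in VA libraries 1 to 3, against 64.7%, 48.99% and 42.4% in whole-worm libraries 2 to 4. These shares overlap between groups. Among 5 other genes on the H3 variant list, cpar-1, a copy of the centromeric H3 gene hcp-3, was listed. It read 18.6, 14.8 and 8.61 TPM in VA libraries 1 to 3, against 0.284, 0.167 and 1.57 TPM in whole-worm libraries 2 to 4, and reads shared with its close copy make the value uncertain. Among the listed H3 variant genes his-72 made up 80.8%, 86.0% and 90.7% of summed TPM in VA libraries 1 to 3, against 85.6%, 84.6% and 82.9% in whole-worm libraries 2 to 4. The H2A genes htz-1, which encodes H2A.Z, and his-35 were both listed, with ratios of 1.95 and 2.75.

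Of 65 core histone genes outside these lists, 2 were listed (3.08%, against 11.6% of all protein-coding genes). Most of the 65 have no intron in the annotation, and of all protein-coding genes without an intron 1.72% were listed. The share of core histone genes is therefore not read as low, and it was not tested. These were the H2B gene his-41 at 3731, 1990 and 2003 TPM in VA libraries 1 to 3, against 1180, 953 and 925 TPM in whole-worm libraries 2 to 4, and the H4 gene his-37, with a ratio of 2.02. The level of his-41 in VA neurons was close to that of his-24, with a smaller ratio of 2.53. Core histone genes have near-identical copies, so single values are uncertain. The genes his-35, his-41 and his-37 lie next to each other within 2949 bases of chromosome V (9544659 to 9547607).

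**Figure D4:**
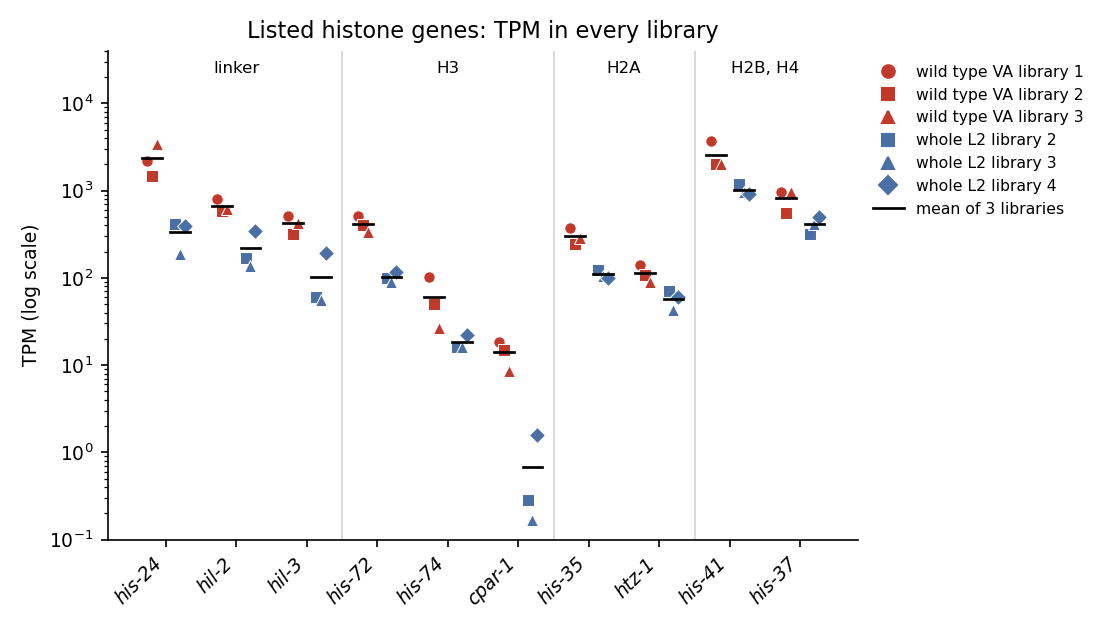
TPM (log axis) of the 10 listed histone genes, grouped by histone type, in each wild type VA library (red, left) and whole L2 library (blue, right), with the mean of 3 libraries as a line. VA points lie above whole-worm points in each gene; his-41 and his-24 are at the highest levels in VA neurons, with means of 2575 and 2338 TPM.

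A feature of gene structure, looked at after the values were seen, was shared by the listed histone genes. In the annotation, 16 of 80 genes named his or hil contain an intron. Of those 16, 8 were listed, and of the 64 without an intron 0 were. Without the 3 histone genes chosen here, 5 of 13 intron-containing histone genes were listed (38.5%). Over all protein-coding genes, 11.9% of those with an intron were listed and 1.72% of those without, so a count of 0 among 64 is near the background, and no test of these shares was made.

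Genes that act on histones form a further list. Of 29 histone modifier and reader genes 12 were listed (41.4%, against 11.6% of all protein-coding genes), with a median ratio of 3.21 beside 5.18 over the table. Among them were hda-4, a class II histone deacetylase gene, at 13.8 TPM in VA neurons against 1.52 TPM in whole worms, and the H3K27 demethylase gene utx-1 at 21.8 against 3.98 TPM. The LSD1-type demethylase gene spr-5 stood at 29.2 TPM in VA neurons against 6.42 TPM in whole worms, and the HP1 genes hpl-1 and hpl-2 had ratios of 2.69 and 2.24. In 11 of the 12 the groups did not overlap, beside 91.9% of all listed genes, so nothing is read from that count. The exception was met-1, an H3K36 methyltransferase gene, which read 24.5 TPM in VA library 3 against 28.7 TPM in whole-worm library 3. Of 12 histone chaperone genes 0 were listed, among them hira-1 and xnp-1, relatives of the vertebrate H3.3 deposition factors HIRA and ATRX. In a list of 12 genes a count of 0 is near the 11.6% of all protein-coding genes, so nothing is read from it. No test of the shares of these lists was made.

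Other G1 regulators were listed in part. Of 13 such genes besides cdk-4, 3 were listed (23.1%, against 11.6% of all protein-coding genes, not tested). The gene cyd-1, for the cyclin partner of CDK-4, was not among them. The E2F gene efl-1 read 19.5, 22.7 and 18.3 TPM in VA libraries 1 to 3, against 4.34, 5.58 and 3.53 TPM in whole-worm libraries 2 to 4. Its dimer partner gene dpl-1 stood at 12.1 TPM in VA neurons, 4.02 times its level in whole worms. The third, fzr-1, encodes the Cdh1-type activator of the anaphase-promoting complex that restrains G1 progression, and stood at 49.8 TPM in VA neurons against 10.3 TPM in whole worms. In these 3 genes the ratios ran from 4.02 to 4.82 and the groups did not overlap. Of 25 S, G2 and M regulators 2 were listed (8%), bir-1 and cyk-4, with ratios of 2.37 and 2.11. Of 26 matched DNA replication genes 2 were listed (7.69%), rnr-2 and evl-18, with ratios of 1.97 and 5.16. In lists of this size both shares are near the 11.6% of all protein-coding genes, so nothing is read from these counts.

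The genes cdk-1 and cdk-2 were counted on the cell cycle lists above, and neither was listed. Of 9 further kinases or kinase partners of the CDK family, 5 were listed (55.6%, against 11.6% of all protein-coding genes), a difference that was not tested. The largest ratio was that of cdka-1, the p35-type activator of CDK-5, at 409, 289 and 282 TPM in VA libraries 1 to 3, against 12.6, 15.9 and 18.8 TPM in whole-worm libraries 2 to 4. Its partner cdk-5 stood at 58.8 TPM in VA neurons against 29.1 TPM in whole worms, a ratio of 2.02. These proteins, with the PCTAIRE kinase PCT-1, are known to act in neuronal transport rather than in division. The pct-1 gene had a ratio of 3.63, and the transcription kinase genes cdk-9 and cdk-12 had ratios of 2.33 and 2.003. By mean level in VA neurons cdk-4 lay below cdka-1, pct-1 and cdk-5 and above cdk-9 and cdk-12.

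**Figure D5:**
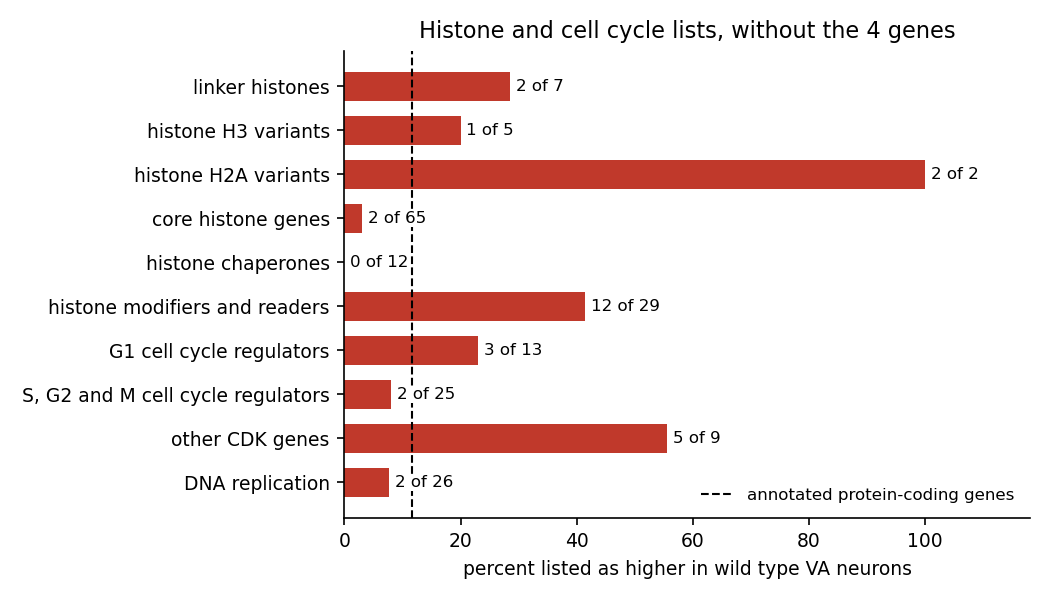
Percent of each gene list in the authors' table of genes higher in VA neurons than in whole L2 worms, with the 4 genes themselves left out and the numbers beside each bar; the dashed line is the 11.6% of annotated protein-coding genes. To the right of the line lie linker histones (2 of 7), H3 variants (1 of 5) and H2A variants (2 of 2). Histone modifiers (12 of 29), G1 regulators (3 of 13) and other CDK genes (5 of 9, without cdk-1 and cdk-2, which are on the cell cycle lists) lie there as well. To the left lie core histones (2 of 65), of which most have no intron, and histone chaperones (0 of 12), where a count of 0 is near the line for a list of this size. S, G2 and M regulators (2 of 25) and DNA replication genes (2 of 26) lie to the left but near the line. Of protein-coding genes without an intron 1.72% were listed. No test of these shares was made.

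The genes most like each of the 4 were sought by the root mean square difference of log2(TPM + 1) profiles over 6 libraries, each profile centred on its own mean. All listed genes share the direction of the groups, so these distances describe mainly the size of the contrast and the order of libraries. The closest to cdk-4 were smp-1 at 0.086, unc-57 at 0.12 and gly-2 at 0.13. In smp-1, a semaphorin gene, the levels were 113, 100.4 and 43.4 TPM in VA libraries 1 to 3, against 16.2, 12.3 and 13.1 TPM in whole-worm libraries 2 to 4, with the same low VA library 3. The closest to his-72 were C27C7.1 at 0.053, pct-1 at 0.12 and C50E10.1 at 0.12, the last listed at 0 in all whole-worm libraries. The closest to his-74 were Y39A1A.27 at 0.13, CD4.8 at 0.17 and glb-13 at 0.18. The closest to his-24 were ztf-26 at 0.22, the kinesin gene klp-7 at 0.27 and F55D10.4 at 0.27, farther than for the other 3. Between the 4 genes themselves the smallest distance was 0.43, between his-72 and cdk-4, and the largest 1.09, between his-24 and his-74.

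In VA neurons of unc-4 mutants none of the 4 genes was among the 214 genes listed as higher than in wild type VA neurons (1.07% of annotated protein-coding genes), and their levels there are not analysed here. From the histone and cell cycle lists, hil-7 and cdc-25.2 were listed. The linker histone gene hil-7 read 307, 81.7 and 556 TPM in unc-4 libraries 1 to 3, against 12.6, 12.7 and 22.04 TPM in wild type libraries 1 to 3. Its groups did not overlap, as in 70.1% of genes of that table. The phosphatase gene cdc-25.2 read 0.294, 2.54 and 17.8 TPM in unc-4 libraries 1 to 3, against 0.166, 0.223 and 0.325 TPM in wild type libraries 1 to 3, and the groups overlapped. Markers of other cells also stood in that table. Of 6 GABA neuron markers 1 was listed, unc-30, at 80.7, 51.6 and 134 TPM in unc-4 libraries 1 to 3 against 11.01, 6.04 and 13.2 TPM in wild type libraries 1 to 3. Its groups did not overlap, and like hil-7 it was highest in unc-4 library 3 and lowest in unc-4 library 2. Of the 6 matched glia and coelomocyte markers 2 were listed, with cup-4 at 1409, 140 and 567 TPM in unc-4 libraries 1 to 3 against 29.9, 43.3 and 115.2 TPM in wild type libraries 1 to 3, and unc-122 at 422, 33.3 and 119 TPM against 8.71, 12.3 and 26.4 TPM. Both were highest in unc-4 library 1 and lowest in unc-4 library 2. The part of these 3 markers in the level of hil-7 was not tested.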

How the data were processed

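RNA was sequenced from sorted VA neurons and whole L2 worms, per the labels, with 3 libraries in each group. The authors deposited a TPM value per gene and library, the group means, a fold change read here as a linear ratio, and an FDR p-value, per the file headers. The submitters' processing notes name WBcel235 as the genome build. Aligner, counter and statistical model are not given in the sources used here. Each table holds selected genes alone, all called higher at an FDR below 0.05. The cDNA kit named in the labels is a low-input one; how it captures histone mRNAs, many of which lack a poly(A) tail, was not tested.

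Means, SDs, ratios of mean TPM and differences of log2(TPM + 1) were computed in Python 3.11.15 with pandas 2.3.3, and checked on simulated data. No test was run, because the genes were chosen on this contrast. List genes were matched by identifier through the Ensembl release 115 annotation of WBcel235, which also gave exons and coordinates. The WT VA values of the 13 genes in both tables were identical, within a relative tolerance of 1e-06. Genes named are the 4, the listed members of lists written down for this work, and the 3 listed genes of at least 1 TPM nearest each of the 4. The members and lists were chosen with earlier results of these data known. Alternatives were leaving out each library, medians, geometric means, other pseudocounts, and totals without heat shock or peptide genes.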

Additional observations from a re-analysis of the deposited data

How the results depend on the processing

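Ratios of mean TPM stayed above 1 in every setting tried. For all 4 genes every VA library exceeded every whole-worm library. Leaving out a library or using medians or geometric means therefore could not bring a ratio below 1. The ratios also moved by less than the SD between VA libraries. Leaving out 1 of 3 VA libraries always moves the mean by less than that SD, so nothing is read from either outcome there. With 1 library left out the ratios ran from 5.43 to 8.35 for his-24, 3.64 to 4.50 for his-72, 2.1003 to 4.21 for his-74 and 6.06 to 8.94 for cdk-4. Only that of his-74, without VA library 1, moved by over 1.5 times. With medians in place of means the ratios were 5.47, 4.05, 3.09 and 8.77 in the same order, and with the peptide genes flp-1 and H05L03.3 taken out of the total 7.88, 4.53, 3.60 and 7.63. The log2 differences kept their direction with pseudocounts of 0.1 and 5, but no pseudocount could reverse it where the groups do not overlap. List counts were the same when matched by symbol alone. With uncentred profiles, which weigh level as well as shape, 0 of the 3 nearest genes were shared for each of the 4. When the transcript with fewest exons was used, an alternative chosen after seeing the data, the 8 listed his and hil genes again all had an intron. No paired analysis was possible because the result comes from no test. Depth is unknown, so no counting limit is given.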
